A study of Mus musculus with 22 samples.

Results

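MHC class I antigen presentation was followed through 9 genes in mouse kidney, taken from the table of read counts by their gene symbol: the heavy chains H2-K1 and H2-D1, the light chain B2m, the peptide transporter subunits Tap1 and Tap2, the loading factor Tapbp, the proteasome subunits Psmb8 and Psmb9, and the regulator Nlrc5. All 9 were found among the 32858 genes of the table, and all 9 were among the 17131 genes tested. The kidneys came from 22 male C57Bl6/J mice, 8 to 10 weeks old at the start. The mice formed 4 groups: vehicle (a mixture of DMSO, cremophor and saline; n = 5), KW6002 (n = 6), cisplatin (n = 5) and cisplatin plus KW6002 (n = 6). Cisplatin, a platinum drug that damages the renal tubule, was injected intraperitoneally at 3 mg/kg on 6 consecutive days, and the mice were killed 72 hours after the last dose. KW6002 (istradefylline), which blocks the adenosine receptor encoded by Adora2a, was injected at 3 mg/kg daily from day -5 to day 7. Whole-kidney polyA RNA was sequenced, with 26471762 to 40510754 counted reads per library. Levels are given as CPM, read counts relative to library size, after scaling by the trimmed mean of M values (TMM), a method that makes libraries of different composition comparable.

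Class I molecules display peptides from proteins made inside the cell to CD8 T cells. The proteasome cuts these proteins, and cells exposed to interferon exchange some of its catalytic subunits for the inducible ones encoded by Psmb8, Psmb9 and Psmb10, which form the immunoproteasome. The TAP transporter carries the peptides into the endoplasmic reticulum, where tapasin, the product of Tapbp, holds an empty heavy chain and its light chain next to the transporter until a peptide is bound. NLRC5 is a transactivator that is recruited to class I promoters by factors bound to a conserved set of elements, one of which is bound by CREB-type factors and another, the inverted CCAAT box, by NF-Y. Most nucleated cells make class I molecules, in the kidney tubular cells, endothelium and leukocytes alike, so a level in whole kidney is a sum over cell types, and fewer cells of a type cannot be told apart from less RNA per cell.

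H2-K1, H2-D1, Tap1, Tap2, Tapbp, Psmb8 and Psmb9 lie in the MHC region of chromosome 17, B2m lies on chromosome 2 and Nlrc5 on chromosome 8. In the mouse annotation used here (GENCODE M21, GRCm38) H2-K1 (ENSMUSG00000061232) spans bases 33996017 to 34000347 of chromosome 17 and H2-D1 (ENSMUSG00000073411) spans 35262730 to 35267499. Psmb9 (34181987 to 34187764, minus strand) and Tap1 (34187553 to 34197225, plus strand) are transcribed away from each other from a shared start region, and Psmb8 (34197721 to 34201454) and Tap2 (34203527 to 34216321) follow within the same stretch. B2m (ENSMUSG00000060802) lies at 122147686 to 122153083 of chromosome 2. The exons of Tap1 and Psmb9 overlap on opposite strands, as do those of Tap2 and Psmb8 with the antisense gene Gm20496, and Tapbp exons overlap the antisense gene Gm19412 and, on the same strand, Zbtb22. Nlrc5 exons overlap 9330175E14Rik on the opposite strand, which had 1199 counts over all libraries against 5913 for Nlrc5. Tap2 exons also overlap Gm15821 on the opposite strand, at 44 counts against 28107. Use of strand in counting is not given in the sources used here, so these overlaps leave some uncertainty in Tap1, Psmb9, Tapbp and Nlrc5. H2-K1 shared 9.63% of its 50-base windows, and H2-D1 12.8%, with transcripts of other genes, most often class I relatives such as H2-Q10 and H2-Q1, while B2m shared 0%. Tapbp shared 23.2%, Psmb8 11.9% and Tap2 11.6%, most often with the overlapping genes on the opposite strand.

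Promoter windows of RefSeq (GRCm38.p6, 250 bases before to 50 after an annotated start) were given for 7 of the 9 genes, all but Tap2 and Nlrc5. The stretches below are shown because those of H2-K1, H2-D1 and B2m carry the element set named above, with that of Tap1, which holds TGACG only, for contrast. Each stretch has 135 bases, ends before the annotated start (for H2-K1, which has 2 annotated starts close together, the downstream one), and is placed so that TGACG, the letters bound by CREB-type factors, begins at the same position in every line. Capitals mark the CREB-type element TGACG, the NF-Y-type box (CCAAT in 1 direction, which reads ATTGG in the opposite one), the GGGATTCCC palindrome of NF-kB sites, and AANNGAAA, which is the core of an interferon-stimulated element, all searched on both strands. The H2-K1 stretch is at chr17:34000334-34000468 (minus strand), that of H2-D1 at chr17:35262913-35263047, that of B2m at chr2:122147529-122147663 and that of Tap1 at chr17:34187390-34187524 (all plus strand).
H2-K1: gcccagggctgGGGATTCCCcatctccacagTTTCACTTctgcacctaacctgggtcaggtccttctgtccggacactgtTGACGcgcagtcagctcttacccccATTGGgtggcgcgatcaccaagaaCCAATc
H2-D1: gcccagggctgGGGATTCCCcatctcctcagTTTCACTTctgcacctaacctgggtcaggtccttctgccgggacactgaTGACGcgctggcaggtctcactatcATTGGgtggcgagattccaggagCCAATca
B2m: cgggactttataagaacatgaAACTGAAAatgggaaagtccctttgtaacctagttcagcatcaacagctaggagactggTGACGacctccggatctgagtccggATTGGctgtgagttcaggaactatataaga
Tap1: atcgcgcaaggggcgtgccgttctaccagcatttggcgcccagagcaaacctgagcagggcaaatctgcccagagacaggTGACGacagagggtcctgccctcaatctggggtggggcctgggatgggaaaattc

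H2-K1, H2-D1 and B2m each held TGACG followed after exactly 20 bases by ATTGG, and the windows of Tap1, Tapbp, Psmb8 and Psmb9 did not. This arrangement was in 19 of 32544 distinct promoter windows of the genome, or 0.058%, belonging to 16 genes. The spacing was searched for after the sequences had been seen, so the share is a description. Of 14 other class I heavy chain genes with a window, only H2-M3 held it. The first 110 bases of the H2-K1 and H2-D1 stretches were identical at 99 positions, and both held GGGATTCCC, which 0.353% of windows hold. H2-K1, H2-D1 and B2m also held AANNGAAA, present in 23.9% of windows, whereas TGACG alone was in 20.9% and CCAAT alone in 37.4%. The Psmb8 window held TTCNNNGAA, the letters of an interferon-gamma activated site, found in 8.33% of windows. The Tap1 and Psmb9 windows share 275 bases, so their elements are largely the same letters read in opposite directions.

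**Figure D1:**
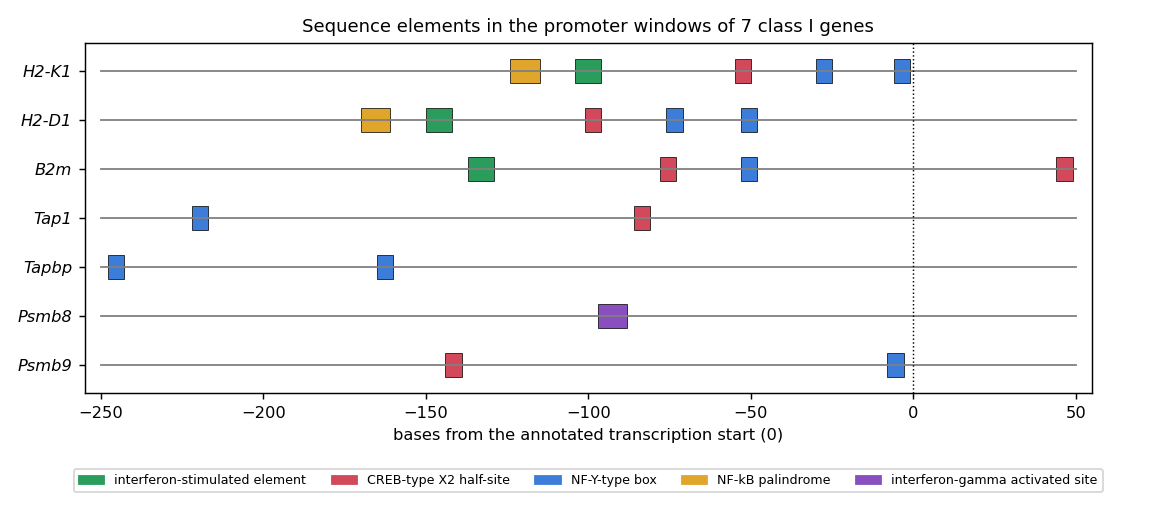
Sequence elements in the promoter windows of 7 class I genes, drawn to scale by distance in bases from the annotated transcription start (0), with 1 row per gene and 1 colour per element. H2-K1, H2-D1 and B2m share the interferon-stimulated element followed by the CREB-type element and the NF-Y-type box in that order, an order absent from the other 4 rows.

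Cisplatin replicate 5 stood apart from the other 4 cisplatin kidneys in these genes. It was the highest of its group in 8 of the 9 genes, all but Tapbp, and in each of these 8 the gap to the next kidney exceeded 0.71 of the range of the group. Over all tested genes it was the highest in 29.9% and stood apart in this way in 2.76%. Its summed macrophage markers reached 409.5 CPM, against 283 to 334 CPM in the other 4 cisplatin kidneys, and 9 of 12 macrophage markers were highest in it. It was also above the other 4 in pan-leukocyte markers (103 against 75.3 to 85.1 CPM, with 7 of 8 genes highest in it) and in T and NK cell markers (5.12 against 3.89 to 4.21 CPM, with 9 of 14 highest). Its kidney segment sum was the highest too (6736 against 5143 to 6332 CPM, with 9 of 14 genes highest). So was its dendritic cell sum (54.7 against 48.98 to 52.25 CPM, with 4 of 10 highest). Its B cell (5.83 CPM) and neutrophil (7.47 CPM) sums lay within those of the other 4, and its endothelial sum was below them. Vehicle replicates 1 to 3, whose labels carry numbers in the 300s, were likewise often above vehicle replicates 4 and 5, numbered in the 500s. Mean Tap1 was 14.9 CPM in the former and 9.67 CPM in the latter, and mean B2m 285 and 215 CPM. Macrophage markers summed to 227 to 510.3 CPM in the former and 205 to 215 CPM in the latter, and pan-leukocyte markers to 77.8 to 129.7 and 60.0 to 63.2 CPM. Dendritic cell markers were also higher in the former (33.83 to 45.8 and 33.63 to 33.76 CPM). Endothelial markers went the other way, at 798 to 892 and 933 to 941 CPM. Sums of T and NK cell (6.73 to 10.97 and 7.94 to 9.26 CPM), B cell, neutrophil and kidney segment markers overlapped. The KW6002 group holds 3 mice of each number series, whose levels overlapped for Tap1 and the other members except Tap2 and Nlrc5. These 2 were lower in the KW6002 mice numbered in the 300s than in those in the 500s, the opposite of the vehicle means. Tap2 was at 28.7 to 29.5 and 30.2 to 31.3 CPM, and Nlrc5 at 6.63 to 7.62 and 8.04 to 9.52 CPM. All cisplatin-treated mice are numbered in the 500s. Where leaving out cisplatin replicate 5, or keeping only mice numbered in the 500s, changed a call or moved a called value by over 1.5 times, that value is given beside the result. The part of these kidneys' other features in the results was not tested.

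With cisplatin, 7 of the 9 genes rose at an adjusted p below 0.05 (edgeR quasi-likelihood test, Benjamini-Hochberg adjustment over all tested genes), where 34.6% of all tested genes were higher and 35.9% lower. None of the 9 fell. Their median log2 fold change was 0.55, beside -0.01 over all tested genes. Tap1 rose most, 3.51-fold, and was the only member to meet the study's stricter call (log2 fold change beyond 1 and adjusted p under 0.01), which 24.1% of all tested genes met. When KW6002 was added to cisplatin, H2-K1, H2-D1 and B2m fell by 23.7% to 25.9%, Nlrc5 rose 1.41-fold, and the other 5 genes did not pass the test. Among all tested genes 28.6% were higher and 27.2% lower in that comparison.

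The heavy chains H2-K1 and H2-D1 form the peptide-binding groove of the class I molecules of this strain. H2-K1 was at 242, 237, 210.4, 206 and 195 CPM in the vehicle kidneys and at 297, 309, 309.6, 304 and 379 CPM in the cisplatin kidneys. The 6 KW6002 kidneys ranged from 211 to 246 CPM with a median of 215, and the 6 co-treated kidneys from 212 to 255 CPM with a median of 249.9. Every cisplatin kidney was thus above every kidney of the other 3 groups. H2-K1 rose with cisplatin by a log2 fold change of 0.55 (standard error, SE, 0.07, edgeR adjusted p = 6.16e-07) and was lower with KW6002 added to cisplatin by a log2 fold change of -0.41 (SE 0.07, adjusted p = 3.97e-05). Between co-treated and vehicle kidneys the log2 fold change was 0.15 (SE 0.07, adjusted p = 0.0788), with overlapping groups.

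H2-D1 showed almost the same levels. It was at 252, 240.4, 187, 182 and 184 CPM in the vehicle kidneys and at 281, 294, 299.9, 288 and 362 CPM in the cisplatin kidneys. With KW6002 alone the kidneys ranged from 191 to 261 CPM (median 203) and the co-treated kidneys from 206 to 253 CPM (median 229). The lowest cisplatin kidney was again above the highest kidney of every other group. H2-D1 rose with cisplatin by a log2 fold change of 0.55 (SE 0.10, edgeR adjusted p = 4.38e-05) and fell by 0.39 on the log2 scale when KW6002 was added (SE 0.10, adjusted p = 0.00142). Co-treated and vehicle kidneys overlapped, with a value of 0.16 (SE 0.10, adjusted p = 0.165). The H2-K1 to H2-D1 count ratio was 1.05 in vehicle, KW6002 and cisplatin kidneys and 1.04 in co-treated kidneys (geometric means).

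B2m, which encodes the light chain that pairs with class I heavy chains, was the most abundant member per length. Its vehicle kidneys were at 321, 295, 238, 218 and 212 CPM, and its cisplatin kidneys at 324, 332, 328, 324 and 359 CPM. In the KW6002 group values ranged from 225 to 286 CPM (median 248) and the co-treated kidneys from 236 to 276 CPM (median 242). The cisplatin kidneys lay above all others, but vehicle replicate 1, at 321 CPM, came close to the lowest of them, at 324 CPM. B2m rose with cisplatin by a log2 fold change of 0.38 (SE 0.10, edgeR adjusted p = 0.00137), by 0.63 among mice numbered in the 500s (adjusted p = 2.02e-06) and by 0.59 with library totals in place of TMM factors. It fell by 0.43 when KW6002 was added (SE 0.09, adjusted p = 0.000368). In the co-treated kidneys its log2 fold change against vehicle was -0.06 (SE 0.09, adjusted p = 0.625) over all mice and 0.20 (adjusted p = 0.0339) among mice numbered in the 500s, where the sign turned.

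TAP1 and TAP2 form the peptide transporter together, each contributing to its ATP-driven channel. Tap1 was at 16.4, 16.1, 12.1, 10.5 and 8.85 CPM in the vehicle kidneys and at 43.9, 44.8, 43.7, 43.3 and 48.8 CPM in the cisplatin kidneys. The KW6002 kidneys ranged from 10.5 to 13.6 CPM (median 12.7) and the co-treated kidneys from 39.6 to 54.9 CPM (median 44.0). All 11 kidneys given cisplatin, with or without KW6002, were above all 11 kidneys not given it, and the cisplatin and co-treated kidneys overlapped. The log2 fold change of Tap1 was 1.81 (SE 0.13, edgeR adjusted p = 1.86e-11) for cisplatin against vehicle and 1.83 (SE 0.13, adjusted p = 4.29e-11) for cisplatin plus KW6002 against vehicle. Between the groups given cisplatin it was 0.02, with a 95% interval of -0.21 to 0.24.

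Tap2 was at 33.7, 32.5, 31.2, 26.6 and 27.3 CPM in the vehicle kidneys and at 44.6, 45.2, 43.4, 42.9 and 52.6 CPM in the cisplatin kidneys. With KW6002 alone the kidneys ranged from 28.7 to 31.3 CPM (median 29.9) and the co-treated kidneys from 45.7 to 54.3 CPM (median 48.3). The kidneys given cisplatin were again all above those not given it. Tap2 rose 1.51-fold with cisplatin (log2 fold change 0.60, SE 0.07, edgeR adjusted p = 4.52e-08) and was 1.63-fold higher in co-treated than in vehicle kidneys (log2 fold change 0.71, adjusted p = 4.70e-09). Adding KW6002 to cisplatin gave a log2 fold change of 0.11 (adjusted p = 0.148), which was 0.17 and passed the test without cisplatin replicate 5 (adjusted p = 0.025).

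Tapbp, which encodes tapasin, had the smallest standard errors of the 9 genes. It was at 92.7, 94.3, 88.3, 93.2 and 82.2 CPM in the vehicle kidneys and at 149.5, 152, 158, 159 and 153 CPM in the cisplatin kidneys. In the KW6002 group values ranged from 88.1 to 95.7 CPM (median 91.3) and the co-treated kidneys from 142 to 157 CPM (median 152). Cisplatin replicate 5 lay inside its group here. Tapbp rose 1.71-fold with cisplatin (log2 fold change 0.78, SE 0.04, edgeR adjusted p = 2.86e-13) and was 1.67-fold above vehicle in the co-treated kidneys (adjusted p = 1.78e-12). The change on adding KW6002 to cisplatin was -0.04 on the log2 scale, with a 95% interval of -0.12 to 0.04.

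Psmb8 and Psmb9 encode the inducible proteasome subunits that take the places of those encoded by Psmb5 and Psmb6. Psmb8 was at 11.9, 12.3, 9.04, 7.67 and 6.73 CPM in the vehicle kidneys and at 11.9, 12.7, 12.2, 13.3 and 17.1 CPM in the cisplatin kidneys. The KW6002 kidneys ranged from 8.28 to 10.99 CPM (median 9.30) and the co-treated kidneys from 13.3 to 16.4 CPM (median 14.4). Vehicle replicates 1 and 2 reached the low end of the cisplatin kidneys, while the co-treated kidneys cleared the vehicle kidneys entirely. Psmb8 rose 1.41-fold with cisplatin (log2 fold change 0.50, SE 0.13, edgeR adjusted p = 0.00224) and was 1.54-fold higher in co-treated than in vehicle kidneys (adjusted p = 0.000263). The value on adding KW6002 to cisplatin was 0.13 (SE 0.13, adjusted p = 0.406), with a 95% interval of -0.12 to 0.37. Among mice numbered in the 500s the log2 difference from vehicle was 0.89 with cisplatin and 1.02 with both drugs, more than 1.5 times the values over all mice.

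Psmb9 was at 7.83, 6.41, 5.81, 4.65 and 4.07 CPM in the vehicle kidneys and at 6.66, 6.12, 5.73, 5.64 and 9.40 CPM in the cisplatin kidneys. With KW6002 alone the kidneys ranged from 4.70 to 6.90 CPM (median 5.87) and the co-treated kidneys from 6.45 to 10.3 CPM (median 8.05). The vehicle and cisplatin groups overlapped over most of their range. The log2 fold change with cisplatin was 0.22 (SE 0.17, edgeR adjusted p = 0.257) and did not pass the test. Among mice numbered in the 500s, where only vehicle replicates 4 and 5 remain, it was 0.62 (adjusted p = 0.0157). Without cisplatin replicate 5 it was 0.07 (adjusted p = 0.718). With library totals in place of TMM factors, which moved the median of all genes to 0.20, it was 0.43 (adjusted p = 0.0308). Psmb9 was higher in co-treated than in vehicle kidneys, by a log2 fold change of 0.52 (SE 0.17, adjusted p = 0.00979), or 0.92 among mice numbered in the 500s (adjusted p = 0.00137). The value on adding KW6002 to cisplatin was 0.30 (adjusted p = 0.122), or 0.45 without cisplatin replicate 5 (adjusted p = 0.0193).

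Nlrc5, the class I transactivator, was the least abundant member per length. It was at 9.61, 8.06, 6.65, 7.00 and 6.34 CPM in the vehicle kidneys and at 5.83, 6.23, 5.57, 6.87 and 12.0 CPM in the cisplatin kidneys. In the KW6002 group values ranged from 6.63 to 9.52 CPM (median 7.83) and the co-treated kidneys from 8.56 to 12.7 CPM (median 10.0). The 4 cisplatin kidneys other than replicate 5 were all below every co-treated kidney. With cisplatin the log2 fold change of Nlrc5 was -0.05 (SE 0.18, edgeR adjusted p = 0.818), so the regulator did not pass the test in the comparison in which 7 of the other 8 members rose. Cisplatin replicate 5 set much of this value, which was -0.30 (adjusted p = 0.053) without it and 0.12 (adjusted p = 0.674) among mice numbered in the 500s. Nlrc5 rose when KW6002 was added to cisplatin, by a log2 fold change of 0.49 (SE 0.17, adjusted p = 0.0148), and by 0.75 (adjusted p = 4.7e-05) without cisplatin replicate 5. Without cisplatin replicate 3 the value was 0.41 with an adjusted p of 0.0508.

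**Figure D2:**
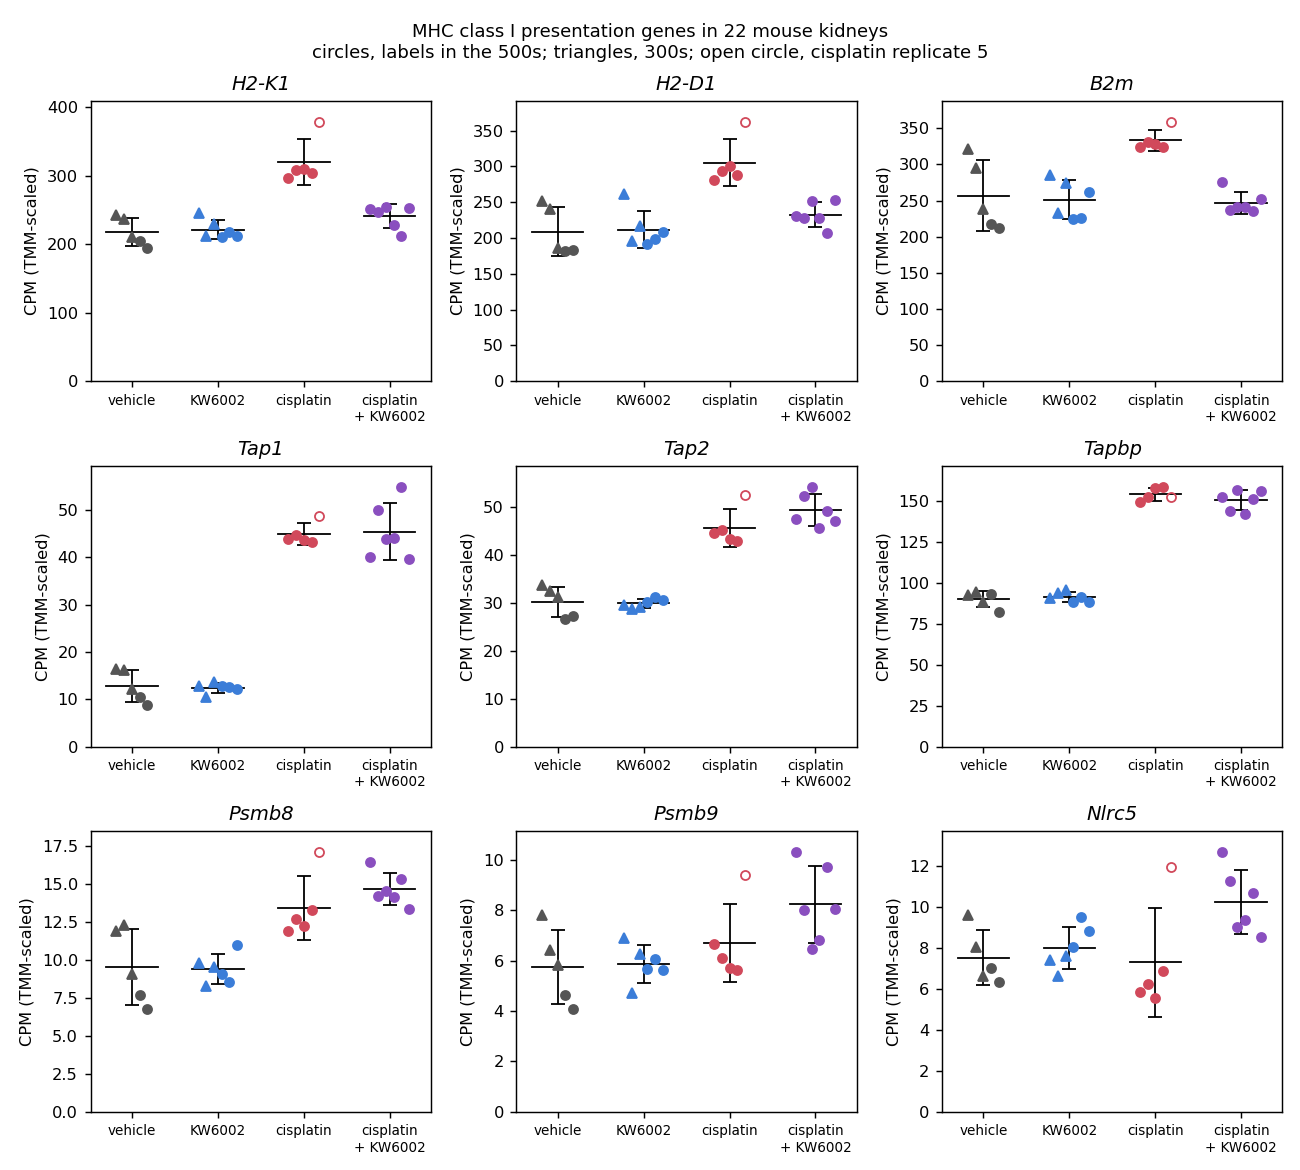
TMM-scaled CPM of the 9 class I genes in each of 22 kidneys, by group on the x axis, from 0 on the y axis, with horizontal lines at the mean and bars of ± 1 SD. Triangles are mice numbered in the 300s, circles mice numbered in the 500s, and the open circle is cisplatin replicate 5. H2-K1, H2-D1 and B2m are highest in the cisplatin group, whereas Tap1, Tap2 and Tapbp are high in both groups given cisplatin.

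Against vehicle, the co-treated kidneys were higher in 6 of the 9 genes, namely Tap1, Tap2, Tapbp, Psmb8, Psmb9 and Nlrc5, where 29.8% of all tested genes were higher and 29.9% lower. H2-K1, H2-D1 and B2m did not pass the test. H2-K1 passed without vehicle replicate 1 (0.19, adjusted p = 0.0337), vehicle replicate 2 (0.18, adjusted p = 0.0471) or co-treated replicate 5 (0.18, adjusted p = 0.0335), and H2-D1 without vehicle replicate 1 (0.23, adjusted p = 0.041). Nlrc5 was 1.36-fold higher (log2 fold change 0.45, SE 0.17, edgeR adjusted p = 0.0259), a call lost without vehicle replicate 3, 4 or 5 or co-treated replicate 1, where the log2 fold change was 0.38 to 0.42. With the number series of the labels as a covariate the Nlrc5 call was also lost (0.42, adjusted p = 0.0833), whereas H2-K1 (0.24, adjusted p = 0.0112) and H2-D1 (0.30, adjusted p = 0.0127) passed. H2-K1 and H2-D1 passed as well with library totals in place of TMM factors (0.30 and 0.31), where the median of all genes was 0.16. This comparison shares its vehicle kidneys with the cisplatin comparison and its co-treated kidneys with the KW6002 comparison, so the values are not independent of those above. Among mice numbered in the 500s all 9 genes were higher in co-treated than in vehicle kidneys, although only 2 vehicle mice remain there. H2-K1 was higher by 0.27 (edgeR adjusted p = 0.0192) and H2-D1 by 0.35 (adjusted p = 0.00494). Of 17761 genes tested among these mice, 4364 were higher and 4214 lower.

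KW6002 alone left all 9 genes short of the test against vehicle, with log2 fold changes of -0.04 (Tap1) to 0.09 (Nlrc5). Over all tested genes 0.0175% passed in this comparison. At an unadjusted p below 0.05 the count was 0 of 9 as well, and DESeq2 also called 0. Among mice numbered in the 500s, with 2 vehicle kidneys, the log2 fold changes were 0.03 (Tapbp) to 0.41 (Psmb9), and none passed. Over all mice the 95% intervals of the log2 fold changes reached from -0.12 to 0.16 for H2-K1 and from -0.24 to 0.42 for Nlrc5. The effect of KW6002 with cisplatin was compared directly with its effect without cisplatin. It was lower for 3 of the 9 genes, H2-K1 (difference of log2 fold changes -0.43, SE 0.10, edgeR adjusted p = 0.00149), H2-D1 (-0.41, SE 0.14, adjusted p = 0.018) and B2m (-0.40, SE 0.13, adjusted p = 0.0165), where 19.9% of all tested genes were lower and 22.8% higher. Without cisplatin replicate 5 these differences were -0.36, -0.34 and -0.37 (adjusted p = 0.0025, 0.0402 and 0.0302). Nlrc5 had a difference of 0.41 (adjusted p = 0.171), which became 0.66 (adjusted p = 0.00445) without cisplatin replicate 5 and 0.10 (adjusted p = 0.83) among mice numbered in the 500s.

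**Figure D3:**
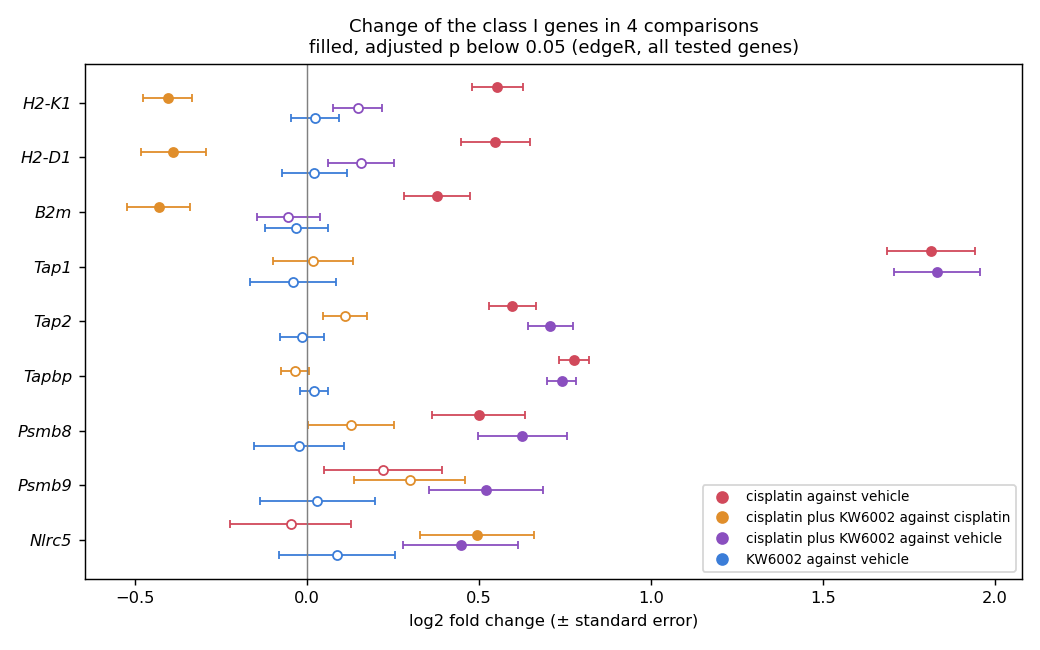
Log2 fold change of each class I gene (x axis, with ± 1 standard error) in 4 comparisons, filled where the edgeR adjusted p over all tested genes was below 0.05. The heavy chains and B2m have opposite signs in cisplatin against vehicle and in cisplatin plus KW6002 against cisplatin, while Tap1, at 1.81 and 1.83 against vehicle, is near 0 in the latter.

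Per kilobase of exon, B2m was the most abundant of the 9 genes in the vehicle kidneys, at 299 ± 56.8 CPM per kb (SD, n = 5). The length used is the union of all annotated exons of a gene, 860 bases for B2m, 3381 for Psmb8, 3660 for Psmb9 and 5476 for Tap1. The order between genes depends on this choice, and other lengths were not tried. H2-D1 (81.0 ± 13.3) and H2-K1 (74.2 ± 7.08) followed and did not differ beyond their spread. Tapbp was at 24.8 ± 1.37 CPM per kb and Tap2 at 8.00 ± 0.835. Psmb8 (2.81 ± 0.732) and Tap1 (2.33 ± 0.613) overlapped, as did Tap1 with Psmb9 (1.57 ± 0.406) and Psmb9 with Nlrc5 (0.887 ± 0.157). In the cisplatin kidneys Tap1, at 8.20 ± 0.411 CPM per kb (SD, n = 5), was above Psmb8 (3.97 ± 0.626) with no overlap, and the order of the others was kept. H2-D1, H2-K1 and B2m were at 118 ± 12.8, 109 ± 11.4 and 388 ± 17.2 CPM per kb there.

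Ratios of gene pairs within a library do not depend on scaling between libraries, and were compared for 7 pairs in 4 comparisons with a 2-sided exact permutation test, adjusted over all 28. Tap1 and Tap2 products work in equal numbers in the transporter, but the count ratios are not corrected for gene length. Per kilobase of exon, Tap1 stayed below Tap2 in cisplatin kidneys, at 8.20 against 12.1 CPM per kb. The mean log2 ratio of Tap1 to Tap2 counts was -1.28 ± 0.25 in vehicle (SD, n = 5), -1.27 ± 0.12 in KW6002 (n = 6), -0.02 ± 0.05 in cisplatin (n = 5) and -0.13 ± 0.18 in co-treated kidneys (n = 6), with no overlap between kidneys with and without cisplatin. The difference was 1.25 for cisplatin against vehicle (exact permutation p = 0.00794, the smallest possible with 5 against 5, adjusted p = 0.0556) and 1.15 for co-treated against vehicle (exact permutation p = 0.00216, the smallest possible there, adjusted p = 0.0303). The heavy chain to light chain ratios moved less than Tap1 to Tap2. H2-D1 to B2m differed by 0.16 in mean log2 ratio between cisplatin and vehicle kidneys (exact permutation p = 0.0159, adjusted p = 0.0741), and H2-K1 to B2m by 0.16 (exact permutation p = 0.0714, adjusted p = 0.222), neither passing after adjustment. Both were smaller among mice numbered in the 500s, at 0.10 and 0.04. Between co-treated and vehicle kidneys H2-D1 to B2m differed by 0.21 (exact permutation p = 0.013, adjusted p = 0.0727). H2-K1 to B2m differed there by 0.19 (exact permutation p = 0.0346, adjusted p = 0.121).

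The inducible subunits were set against the subunits they replace. Psmb8 to Psmb5 differed by 0.04 in mean log2 ratio between cisplatin and vehicle kidneys (exact permutation p = 0.865, adjusted p = 0.966), and Psmb5 itself rose with cisplatin by a log2 fold change of 0.48 (edgeR adjusted p = 2.3e-06). Psmb9 to Psmb6 differed by 0.23 (exact permutation p = 0.357, adjusted p = 0.625). Among mice numbered in the 500s these differences were 0.22 and 0.66, with both remaining vehicle kidneys below all 5 cisplatin kidneys in either ratio and no test. Psmb10 to Psmb7, the third such pair, was at a mean log2 ratio of -3.17 ± 0.18 in vehicle (SD, n = 5), -2.39 ± 0.15 in cisplatin (n = 5) and -2.004 ± 0.25 in co-treated kidneys (n = 6). Its difference was 0.79 for cisplatin against vehicle (exact permutation p = 0.00794, adjusted p = 0.0556) and 1.17 for co-treated against vehicle (exact permutation p = 0.00216, adjusted p = 0.0303). Of the 3 inducible subunits, Psmb10 therefore shifted most against its partner over all mice. No pair passed for cisplatin plus KW6002 against cisplatin or for KW6002 against vehicle, where the smallest unadjusted exact permutation p-values were 0.0195 (Psmb10 to Psmb7) and 0.162.

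**Figure D4:**
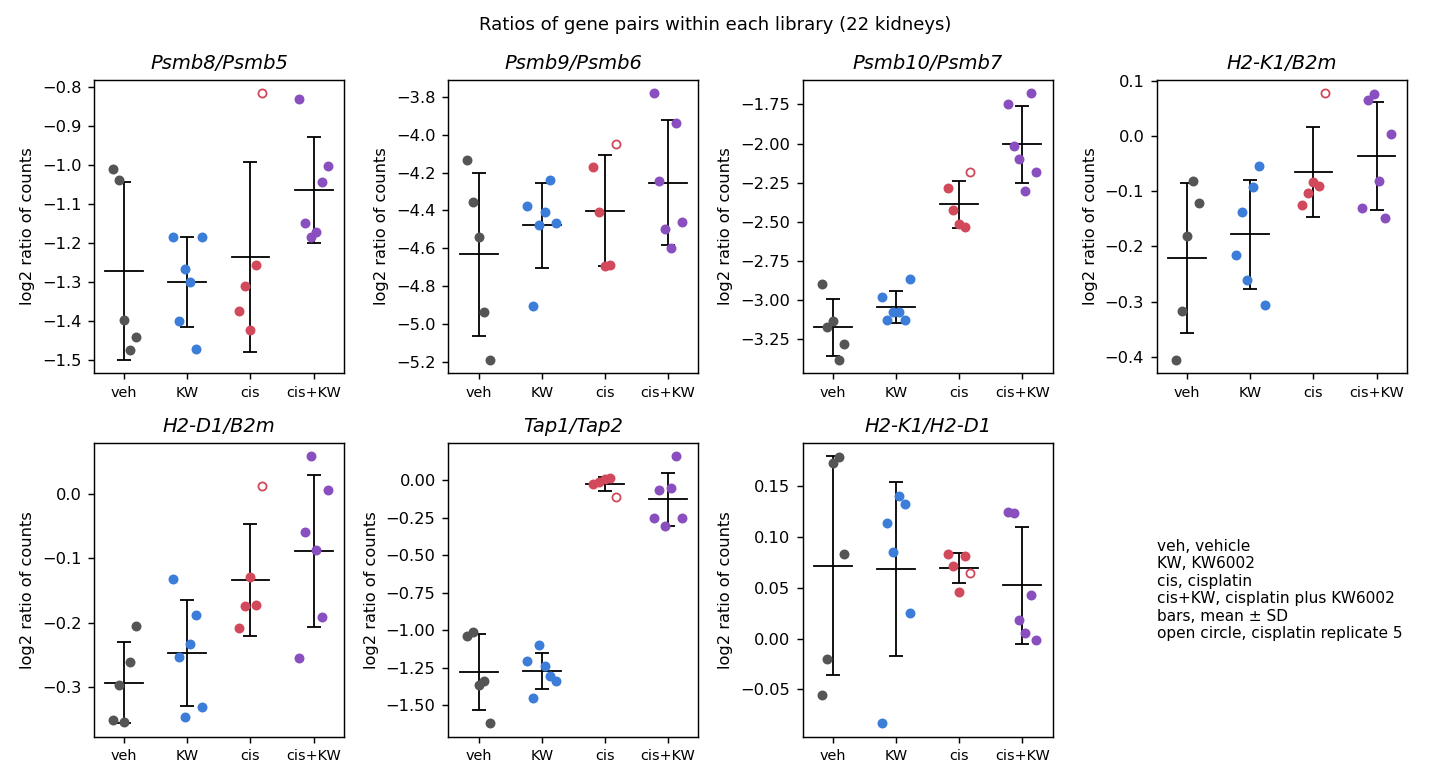
Log2 ratio of the counts of 7 gene pairs in each of 22 libraries (y axis, a separate range in each panel), by group, with the mean and ± 1 SD. Tap1 to Tap2 moves from about -1.28 in vehicle to -0.02 in cisplatin kidneys and Psmb10 to Psmb7 rises from -3.17 to -2.39, while in the other 5 pairs the vehicle and cisplatin libraries overlap.

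Other class I heavy chains did not follow H2-K1 and H2-D1 as a group. Of 13 tested, 4 rose and 6 fell with cisplatin, with a median log2 fold change of -0.15 beside -0.01 over all tested genes. Beside this and the list counts below, 34.6% of all tested genes rose and 35.9% fell with cisplatin. With KW6002 added to cisplatin, 28.6% of all tested genes rose and 27.2% fell. Mr1, which presents vitamin metabolites to mucosal T cells, rose from 11.5 ± 0.45 CPM in vehicle (SD, n = 5) to 27.0 ± 2.5 in cisplatin kidneys (n = 5) and was at 15.1 ± 1.2 in co-treated kidneys (n = 6), with log2 fold changes of 1.23 and -0.84 (edgeR adjusted p = 3.9e-13 and 4.5e-10). H2-Q6 fell from 26.7 ± 3.1 to 10.0 ± 2.9 CPM with cisplatin (log2 fold change -1.42) and rose with KW6002 added (0.75, adjusted p = 0.00041). H2-Q10, a secreted relative, fell by 1.86 on the log2 scale and rose by 1.70 with KW6002 added. H2-Q7 fell by 0.89 with cisplatin. The H2-Q genes are closely similar, H2-Q6 sharing 34.97% and H2-Q7 26.5% of 50-base windows with other genes, so how reads were divided among them is uncertain. H2-M3, the other heavy chain whose promoter holds the 20-base arrangement, had a value of 0.10 (adjusted p = 0.53) for cisplatin against vehicle and -0.21 (adjusted p = 0.18) for the co-treatment against cisplatin.

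Among 18 genes of peptide loading and trimming, 6 rose and 5 fell with cisplatin, beside 34.6% and 35.9% of all tested genes. The median of the list was 0.02. Calr, which encodes the chaperone calreticulin of the loading complex, fell by 0.65 on the log2 scale (edgeR adjusted p = 4.9e-06), and Pdia3, its partner in the complex, had a log2 fold change of 0.02 (adjusted p = 0.81). Lap3, a cytosolic leucine aminopeptidase, fell by 1.42. The aminopeptidases Lnpep and Npepps rose by 0.51 and 0.39, and Sec22b, a trafficking factor used in cross-presentation, rose by 0.32. Tapbp and the TAP genes therefore rose in kidneys in which Calr fell.

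Of 13 tested proteasome core partners, 8 rose with cisplatin and none fell, and the median was 0.16. Psmb10, the third inducible catalytic subunit, rose by 0.69 (edgeR adjusted p = 9.3e-07), and by a further 0.37 when KW6002 was added (adjusted p = 0.0013), from 12.6 ± 1.7 CPM in vehicle (SD, n = 5) through 20.4 ± 1.8 in cisplatin (n = 5) to 26.2 ± 3.1 in co-treated kidneys (n = 6). Psme1 and Psme2, the subunits of the PA28 activator, rose by 0.55 and 0.47 with cisplatin, and Psme1 fell by 0.24 with KW6002 added. The constitutive catalytic subunits Psmb6 and Psmb7 had log2 fold changes of 0.01 (adjusted p = 0.94) and -0.09 (adjusted p = 0.13). With library totals in place of TMM factors, a scaling under which the median of all genes moved to 0.20, Psmb7 turned to 0.13 (adjusted p = 0.0257). The structural subunits Psmb4, Psmb3, Psmb1 and Psmb2 rose by 0.34, 0.27, 0.16 and 0.11.

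Of 22 regulators other than Nlrc5 that act on class I genes or on interferon responses, 13 rose and 2 fell with cisplatin, with a median of 0.31. Irf1, an interferon-induced activator of Tap1, Psmb9 and B2m, was at 20.9 ± 1.7 CPM in vehicle (SD, n = 5), 27.4 ± 3.1 in cisplatin (n = 5) and 45.2 ± 6.8 in co-treated kidneys (n = 6), rising by 0.40 with cisplatin (edgeR adjusted p = 0.001) and by 0.72 with KW6002 added (adjusted p = 8.9e-07). Irf7 rose by 1.37 and fell by 0.70 with KW6002 added. Stat3 and Rela rose by 1.202 and 0.63 with cisplatin and had values of -0.01 and 0.09 with KW6002 added. Of the factors that bind the class I promoter elements, Rfx5 rose by 0.48 with cisplatin and fell by 0.34 with KW6002 added. Nfyc, a subunit of NF-Y, fell by 1.12 and rose by 0.58. The other NF-Y subunits did not share this course. Mean Nfyb was 20.75 CPM in vehicle, 29.97 in cisplatin and 25.76 in co-treated kidneys, and mean Nfya 36.59, 35.87 and 26.92 CPM. In the same order, the CREB-type factors Atf1 and Creb1 were at 17.16, 23.44 and 23.09 CPM and at 46.82, 47.04 and 41.96 CPM. Rfxap was at 8.285, 7.7 and 10.08 CPM and Rfxank at 19.26, 18.54 and 20.5 CPM. Ciita, the class II transactivator related to Nlrc5, fell from 6.40 ± 2.6 CPM in vehicle to 0.94 ± 0.61 in cisplatin kidneys (log2 fold change -2.78) and was at 9.51 ± 2.4 in co-treated kidneys (log2 fold change against cisplatin 3.35, adjusted p = 4.7e-09).

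Ifng, the gene of interferon gamma itself, had at most 2 counts in any library and was not tested. None of the interferon ligand genes in the list used here was tested, and interferon alpha genes were not part of that list. Of 11 tested genes of interferon receptors, their JAK and TYK kinases and the SOCS inhibitors, 8 rose and 1 fell with cisplatin, and 8 fell with KW6002 added, with medians of 0.41 and -0.25. The interferon gamma receptor subunits Ifngr1 and Ifngr2 rose by 1.85 and 1.25 and fell by 1.02 and 0.67 with KW6002 added. Ifnlr1, a subunit of the lambda interferon receptor, rose by 1.33, and Socs3, a feedback inhibitor of cytokine signalling, rose by 3.99 (edgeR adjusted p = 2.8e-11). Of 6 tested stress, checkpoint and costimulatory ligands, 4 rose and none fell with cisplatin and 4 fell with KW6002 added, with medians of 0.85 and -0.71. The cisplatin values of this list ranged from -0.44 to 4.86. Cd47, which restrains phagocytosis, rose by 0.26. Of 8 tested receptors for class I and cytotoxic effector genes, the other side of this recognition, 6 fell and none rose with cisplatin, with a median of -1.87, and 3 rose with KW6002 added.

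**Figure D5:**
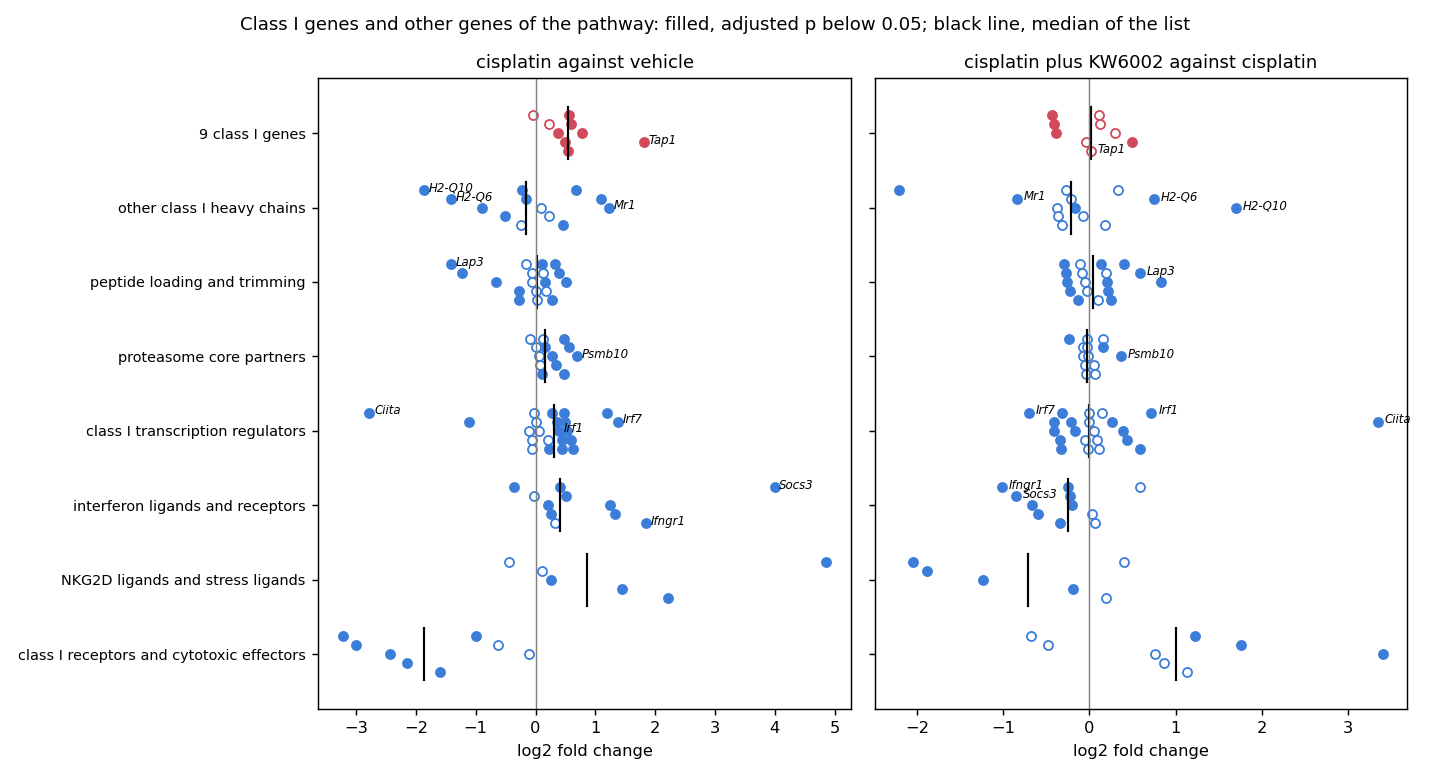
Log2 fold change (x axis) of the 9 class I genes (red) and of 7 lists of related genes (blue) for cisplatin against vehicle and for cisplatin plus KW6002 against cisplatin, 1 point per gene, filled where the edgeR adjusted p was below 0.05, with a black line at the list median. The median of the 9 genes is 0.55 and 0.02, while the receptor and effector list has a median of -1.87 and 1.00.

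Markers of the cell types that carry class I molecules moved too. The summed level of 14 markers of kidney tubule and glomerular segments was 43420 to 49340 CPM in vehicle, 5143 to 6736 CPM in cisplatin and 11930 to 18730 CPM in co-treated kidneys, and 13 of 14 fell and 1 rose with cisplatin. The sum of 12 macrophage markers ranged from 205 to 510.3 CPM in vehicle, from 283 to 409.5 CPM in cisplatin and from 162 to 268 CPM in co-treated kidneys, with 2 of 12 rising and 2 falling with cisplatin. The sum of 8 pan-leukocyte markers ranged from 60.0 to 129.7, from 75.3 to 103 and from 54.0 to 81.0 CPM in these groups. The 12 endothelial markers summed to 798 to 941, 960.1 to 1244 and 869.8 to 976 CPM, with 5 rising and 3 falling with cisplatin. Cisplatin replicate 5 had the lowest endothelial sum of its group, 960.1 CPM against 1149 to 1244 CPM in the other 4. The 14 T and NK cell markers summed to 6.73 to 10.97, 3.89 to 5.12 and 4.55 to 7.10 CPM, and 8 of 10 tested fell with cisplatin. The sums were 11.9 to 50.1, 2.53 to 6.88 and 5.28 to 23.97 CPM for 10 B cell markers, and 6 of 8 tested fell with cisplatin. For 10 dendritic cell markers they were 33.6 to 45.8, 49.0 to 54.7 and 41.1 to 47.3 CPM. Although this sum was higher with cisplatin, 5 of 8 tested dendritic cell markers fell and 1 rose, with a median log2 fold change of -0.94. For 10 neutrophil markers the sums were 4.33 to 18.1, 6.20 to 13.4 and 4.29 to 8.24 CPM, and 3 of 6 tested rose with cisplatin. In the KW6002 kidneys the sums were 45260 to 50690 CPM for kidney segments, 189 to 568 for macrophages and 877 to 1026 for endothelium. Of the neutrophil markers, Ngp was at 0 in all vehicle libraries and Camp in all KW6002 libraries, each with at most 2 counts in any library of the other of these groups, and no marker of the other lists was at 0 in all libraries of a group. The part of these cell types in the class I values was not tested.

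The genes outside the 9 whose levels over the 22 libraries lay closest to the mean profile of the 9 were Tmem82, Mpg, Rpl9, Optn and Parp14, with root-mean-square differences of 0.12 to 0.13 in centred log2 CPM. Among the 9 themselves, Tap2 (0.11) and Psmb8 (0.11) lay closest to their common mean and Tap1 (0.65) and Nlrc5 (0.34) farthest.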

How the data were processed

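The authors sequenced stranded polyA libraries of whole kidney and deposited raw read counts per gene, with mm10, STAR and HTSeq 0.6.1p1 named in their processing notes. The count columns of 22 mice were used as deposited, and 66 further columns carry no name or value. Genes with enough counts (edgeR 4.0.16 filterByExpr, minimum count 10) were kept, which left 17131 of 32858 genes and 99.9% of counts. All 22 libraries, at 26471762 to 40510754 counts, entered 1 quasi-likelihood fit with TMM factors, with Benjamini-Hochberg adjustment over all tested genes and a threshold of 0.05. The SE of a log2 fold change is its size divided by the square root of the F statistic, and 95% intervals are normal intervals built on it. The common biological coefficient of variation was 0.129. Gene pairs were compared as log2 ratios of counts with 0.5 added, with exact permutation tests enumerated in Python and checked against scipy 1.17.1. The fit was tested on simulated counts. DESeq2 1.42.0, other factors, filters and sample sets were alternatives. The members and all lists were chosen with earlier results of these data known. Genes outside the 9 were named by a fixed rule: set pathway genes, plus up to 4 per list with the largest cisplatin change among passing genes whose average log2 CPM was 1 or more. H2-M3, Nfya, Nfyb, Atf1, Creb1, Rfxap and Rfxank were named after their values were seen. A gene of the set pathway genes is not reported here. Animals are separate mice per the labels, and no pooling is stated.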

Additional observations from a re-analysis of the deposited data

Results flagged for a closer look

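H2-K1, H2-D1 and B2m are listed because the KW6002 effect differed with and without cisplatin. The KW6002 effect with cisplatin minus that without was -0.43, -0.41 and -0.40 on the log2 scale by the edgeR interaction term.

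Single kidneys lay far from the rest of their group in 13 of 64 groups of values examined by Dixon's criterion, which chance meets in about 1 in 20 groups. Cisplatin replicate 5 accounted for 11 of them. Its values were 379 CPM for H2-K1, 362 for H2-D1, 359 for B2m, 48.8 for Tap1, 52.6 for Tap2, 17.1 for Psmb8, 9.40 for Psmb9 and 12.0 for Nlrc5, all the highest of the group. Its log2 ratios were -0.82 for Psmb8 to Psmb5 and 0.0776 for H2-K1 to B2m, the highest of the group, and -0.11 for Tap1 to Tap2, the lowest. KW6002 replicate 1 was high for H2-D1, at 261 CPM, and KW6002 replicate 2 was low for Psmb9 to Psmb6, at a log2 ratio of -4.90. The 9 genes and the 7 ratios share libraries and genes, so these 13 are not independent.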

How the results depend on the processing

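Cisplatin raised 7 or 8 of the 9 genes, and none fell, under every alternative run at the 0.05 threshold (DESeq2, other scaling factors, other filters, other sample sets, the label series as a covariate, the replicate block and the removal of each library). H2-K1, H2-D1 and B2m stayed lower with KW6002 added to cisplatin under all of these. Under the stricter call (log2 fold change beyond 1, adjusted p under 0.01), 1 gene was higher with cisplatin and 1 in co-treated against vehicle kidneys, 0 were higher and 0 lower for cisplatin plus KW6002 against cisplatin, and 0 were lower in the interaction. The sign of B2m in co-treated against vehicle kidneys reversed to 0.20 among mice numbered in the 500s, and that of Psmb7 with cisplatin to 0.13 with library totals alone. Leaving out each library in turn, the number of members ranged from 7 to 7 higher with cisplatin, from 0 to 3 higher and 3 to 3 lower for cisplatin plus KW6002 against cisplatin, from 5 to 8 higher in co-treated against vehicle kidneys, and from 0 to 1 higher and 3 to 3 lower in the interaction. The 3 came without cisplatin replicate 5 (Tap2, Psmb9 and Nlrc5), as did the 1 in the interaction (Nlrc5), and the 0 without cisplatin replicate 3. The number of pairs of genes whose ratio passed ranged from 0 to 3 for cisplatin against vehicle, with 3 without vehicle replicate 5, from 0 to 3 for co-treated against vehicle, with 0 without vehicle replicates 1 to 4 or co-treated replicates 2, 3, 5 or 6, and from 0 to 1 for cisplatin plus KW6002 against cisplatin, with 1 without co-treated replicate 4; exact p-values then sit at their smallest possible values. Of the single-gene results for the 9 genes, 986 kept their side of the threshold, 15 newly passed, 24 no longer passed and 1 reversed with a passing value. The 986 include sign changes of values that passed under neither setting. Tap1 for KW6002 against vehicle, for example, was -0.04 over all mice and 0.37 among mice numbered in the 500s. Among mice numbered in the 500s, with 2 vehicle mice, these ratios were given no test against vehicle.

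Whether the replicate numbers pair the mice was not settled. The median correlation of deviations was 0.008 in 31 same-numbered pairs and -0.001 in other pairs. Of the same-numbered pairs, 7 were above 0.1, with a highest value of 0.405. A library of the same number was the best match for 8 of the 22 libraries. With the replicate block 7 genes were higher with cisplatin, 1 was higher and 3 were lower with KW6002 added, and 6 were higher in co-treated against vehicle kidneys, so the block changed no count. Depth limits Ifng, with at most 2 counts per library, and each member had at least 125 counts in every library.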
